A study of Mus musculus with 12 samples.

Results

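The 38 genes described here encode the machinery of G2 and mitosis: CDK1 and its cyclins, the mitotic kinases, the spindle checkpoint and its ubiquitin ligase partners, centromere and chromosome proteins, spindle kinesins, and the proteins of the midzone and of cytokinesis. They were taken from a list of gene symbols, without a threshold on any value but with earlier results of these data known. All 38 were among the 12774 gene symbols of the deposited table. The study measured polyA RNA by digital gene expression, in which short sequence tags are counted for each gene, in mouse neural progenitor cells of the C17.2 line. The C17.2b line stably expressed a tagged thyroid hormone receptor beta and the C17.2a line a tagged receptor alpha. The sources used here do not say what drives the receptor or whether each line is 1 clone. Each line was given 1e-07 M T3, thyroid hormone in its active form, or left untreated for 6, 12 or 24 h, and all cells had first spent 24 h in medium without serum. This gave 12 groups with 1 library each. Values are RPM, a tag count scaled to a common library total. With 1 library a group, the tests use libraries of another time, line or treatment as repeats, and p-values measure the spread between these libraries, which no label says came from separate cultures.

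CDK1 bound to cyclin A or B drives entry into mitosis, is switched on by CDC25 phosphatases, and is switched off when the anaphase-promoting complex with CDC20 marks cyclin B for destruction. Most of these genes are transcribed in late S phase, G2 and mitosis and are silent in cells that have left the cycle, so that their summed messenger RNA in a culture is a familiar readout of how many cells are dividing. In bulk RNA such as this, fewer cells in G2 or mitosis and less RNA per such cell cannot be told apart.

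Promoters of this class of genes often hold a pair of short elements, a CCAAT box, bound by NF-Y, and downstream of it the cell cycle genes homology region with the core TTTGAA, bound by the MuvB core of the DREAM and B-MYB complexes. RefSeq promoter windows of GRCm38.p6, reaching from upstream of the start to a little downstream of it, were matched for 32 of the 38 genes. TTTGAA on either strand was in a window of 23 of these 32 genes (71.9%), against 14.2% of the genes of the table. CCAAT on either strand was in 26 (81.2%), against 43.6%, and both were in 1 window of 21 (65.6%), against 5.91%. No hit of one motif overlapped a hit of the other in the windows of the 38 genes. The match is of letters only and shows no binding. Birc5, Mad2l1, Nusap1 and Pttg1 had neither motif in their windows. The 120 bases before the start are printed for 9 of the 32 genes, and each printed stretch holds a CCAAT on either strand. They are written 5′ to 3′ on the strand of the gene, with capitals marking TTTGAA and CCAAT or their reverse complements TTCAAA and ATTGG.
Plk1 (chr7:122159315-122159434, plus strand): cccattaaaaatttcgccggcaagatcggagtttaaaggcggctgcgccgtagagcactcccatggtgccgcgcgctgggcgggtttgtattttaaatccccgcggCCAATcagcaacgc
Ccnb1 (chr13:100786487-100786606, minus strand): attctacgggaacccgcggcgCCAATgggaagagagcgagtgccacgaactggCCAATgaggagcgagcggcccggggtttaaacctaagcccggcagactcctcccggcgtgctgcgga
Cdk1 (chr10:69352913-69353032, minus strand): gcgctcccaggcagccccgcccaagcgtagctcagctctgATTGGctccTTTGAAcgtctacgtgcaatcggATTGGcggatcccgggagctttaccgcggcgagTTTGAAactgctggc
Cdc20 (chr4:118437344-118437463, minus strand): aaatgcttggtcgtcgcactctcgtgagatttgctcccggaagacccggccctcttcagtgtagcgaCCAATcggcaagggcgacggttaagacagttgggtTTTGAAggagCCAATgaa
Ube2c (chr2:164769809-164769928, plus strand): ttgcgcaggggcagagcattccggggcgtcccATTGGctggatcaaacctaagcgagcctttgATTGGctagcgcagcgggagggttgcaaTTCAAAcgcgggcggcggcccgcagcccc
Top2a (chr11:99024190-99024309, minus strand): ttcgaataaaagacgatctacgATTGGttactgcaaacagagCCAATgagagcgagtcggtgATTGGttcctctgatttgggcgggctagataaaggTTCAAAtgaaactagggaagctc
Bub3 (chr7:131560250-131560369, plus strand): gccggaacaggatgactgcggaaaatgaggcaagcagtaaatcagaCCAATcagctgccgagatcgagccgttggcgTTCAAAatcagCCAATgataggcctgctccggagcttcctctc
Kif11 (chr19:37376262-37376381, plus strand): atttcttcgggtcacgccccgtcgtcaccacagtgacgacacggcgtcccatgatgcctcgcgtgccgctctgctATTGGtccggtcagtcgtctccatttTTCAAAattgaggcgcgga
Hmmr (chr11:40733438-40733557, minus strand): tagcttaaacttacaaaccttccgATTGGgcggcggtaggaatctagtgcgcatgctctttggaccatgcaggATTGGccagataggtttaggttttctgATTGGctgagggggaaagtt
The Cdk1 and Ube2c stretches show the common arrangement, with CCAAT boxes ahead of a homology core close to the start. The Ccnb1 stretch has 2 CCAAT boxes and no TTTGAA, and no TTTGAA lies anywhere in its window. In Plk1 and Hmmr the TTTGAA of the window lies after the start and is not printed.

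The libraries held 7124000 to 19100000 implied tags, the depth being read from the step between low values, which puts 3 tags at 0.157 to 0.421 RPM, a floor for counting error alone. The C17.2a T3 24 h library stood apart. Of all 10577 genes 18.3% were at least 2-fold lower in it than in its untreated partner, beside 0.86% to 1.72% in the other 5 pairs, and results of pooled tests that rest on it are given with and without it. Of 10 neural progenitor markers 9 were in the table, without Pax6. Nes, Sox2, Vim, Notch1, Hes1 and Cdh2 were present in every library, with Nes at 70.2 to 642 RPM. Fabp7 was at 1.87 to 22.1 RPM, Msi1 at 0 to 4.35 RPM, and Slc1a3, a radial glia and astrocyte marker, at 0 to 0.41 RPM. Of 8 tested 3 were lower with T3 in the response shared by both lines and none was higher, beside 6.45% of all genes called in either direction. Of 7 tested in untreated cells 2 were higher and 1 lower in C17.2b, and 2 were higher and 2 lower at 24 h than at 6 h. Of all genes 2.93% were higher and 5.92% lower in untreated C17.2b, and 43% were higher and 13.1% lower at 24 h. The marker calls below have these same shares beside them. Fibroblast markers were also high, chiefly Col1a1, Col1a2 and Col3a1, while Dcn was at 0.05 to 7.28 RPM. Over the 6, 12 and 24 h libraries the 5 of 6 listed fibroblast markers in the table summed to 2238 to 5801 RPM in C17.2b cells with T3, 2627 to 4571 RPM in untreated C17.2b cells, 4616 to 10526 RPM in C17.2a cells with T3 and 4951 to 8075 RPM in untreated C17.2a cells. Of 4 tested in untreated cells, 3 were lower in C17.2b and all 4 were higher at 24 h than at 6 h. Oligodendrocyte lineage markers moved the other way between the lines, with 2 of 5 tested higher in untreated C17.2b. Mag and Mog were not in the table. The 5 summed to 508 to 1019 RPM in C17.2b cells with T3, 509 to 903 RPM in untreated C17.2b cells, 269 to 638 RPM in C17.2a cells with T3 and 372 to 676 RPM in untreated C17.2a cells, chiefly Sox10, while Mbp and Olig2 were at 0.08 to 2.88 RPM. Of 8 neuron markers 4 were in the table, summing to 45.3 to 578 RPM, nearly all of it Tubb3, the 1 tested in untreated cells, which was higher in C17.2b and at 24 h. The other 3 were at 0 to 1.94 RPM. Of 4 astrocyte markers tested in untreated cells 1 was lower in C17.2b, and 1 was higher and 1 lower at 24 h than at 6 h. Of the 5 oligodendrocyte lineage markers 1 was higher with T3 in the shared response. In untreated cells 1 of them was higher and 2 were lower at 24 h. None of 5 listed microglia and macrophage markers was in the table. The part of these markers in the results below was not tested.

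All 38 genes were detected in all 12 libraries, and 32 had at least 1 RPM in each of them. The lowest values were those of the C17.2a 6 h libraries. Ccnb2, which encodes the second mitotic B cyclin, had 0.4 RPM with T3 and 0.23 RPM without at 6 h in C17.2a cells, which is 4 and 3 implied tags, so that at 6 h it was at or near the floor of 3 tags. The median of the 38 genes at 6, 12 and 24 h was 18.8, 29.4 and 32.8 RPM in C17.2b cells with T3 and 20.4, 29.4 and 44.4 RPM in untreated C17.2b cells. It was 5.42, 19.3 and 41.2 RPM in C17.2a cells with T3 and 7.27, 19.7 and 33.8 RPM in untreated C17.2a cells. The median was therefore lowest at 6 h and highest at 24 h in each of the 4 courses, and the C17.2a cells started lower. Summed, the 38 genes took 0.057% to 0.305% of a library, both extremes being C17.2a cells with T3, at 6 h and at 24 h. The sum did not follow the median in every course. Between 12 and 24 h it went from 2272 to 1791 RPM in C17.2b cells with T3 and from 2448 to 2590 RPM in untreated C17.2b cells. It went from 1808 to 3045 RPM in C17.2a cells with T3 and from 1971 to 2021 RPM in untreated C17.2a cells. No gene had its highest value at 6 h in any course. The highest value came at 24 h for 19 genes in C17.2b cells with T3, 25 in untreated C17.2b cells, 30 in C17.2a cells with T3 and 27 in untreated C17.2a cells, and at 12 h for all the others.

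**Figure D1:**
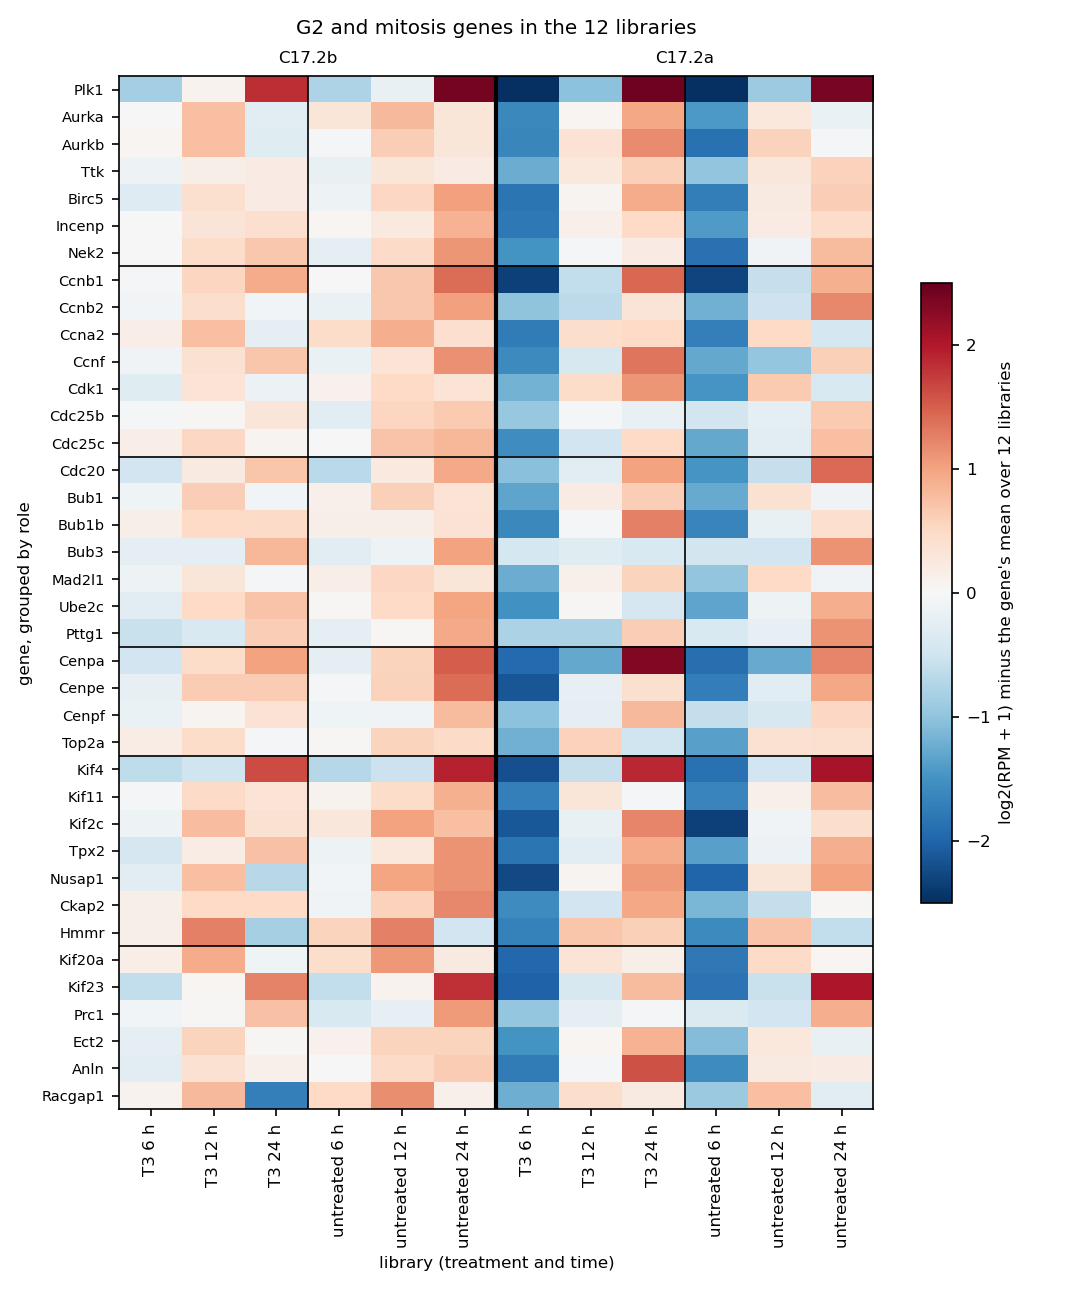
Each row is 1 of the 38 genes, grouped by role from mitotic kinases at the top to cytokinesis at the bottom, and each column is 1 library. Colour is log2(RPM + 1) minus the mean of that gene over the 12 libraries, with values beyond the ends of the scale drawn in its end colours. The 6 h columns of C17.2a cells are the bluest for most genes, and Plk1, Kif4 and Kif23 are red in the 24 h columns of each course, whereas Hmmr is blue in 3 of those 4 columns.

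The first question is how these genes change over 6 to 24 h of treatment time, which followed 24 h in medium without serum. No return of serum is assumed here. In untreated cells 30 of the 38 genes were higher at 24 h than at 6 h and none was lower (limma on log2(RPM + 1) with line as a block, adjusted p under 0.05 over all 10192 genes tested). Of all genes, 43% were higher and 13.1% lower in this comparison, and the median of all genes was itself shifted by 0.40 on the log2 scale. Each difference of this comparison is as fitted to RPM, so that taking away 0.40 gives it relative to the median gene. A difference on the log2(RPM + 1) scale understates the change of low genes. The median of the 38 genes was 1.35 and 36 of them lay above the all-gene median. Median-ratio scaling, which removes the shift, left 22 of the 38 higher, with a median of 0.89, and none lower. Over all genes, 76.6% of the calls were higher in RPM and 48.2% after that scaling. The 8 genes called in RPM alone were Cdc25b, Aurkb, Bub1b, Ttk, Kif2c, Top2a, Ect2 and Anln. At 24 h 28 genes were above both 6 h values in both untreated lines, beside 52.7% of all genes. The factors of the median-ratio scaling were 1.16 to 1.34 in the 24 h libraries, with and without T3, and 0.869 to 0.971 in the earlier ones. Treatment time cannot be told apart here from any other difference that the 24 h libraries share, such as in their preparation. This was not tested.

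Among the mitotic kinases and their partners, 6 of 7 were higher at 24 h. Plk1, the polo-like kinase that acts from centrosome maturation to cytokinesis, changed most. At 6, 12 and 24 h Plk1 had 9.47, 19.04 and 67.1 RPM in C17.2b cells with T3 and 10.2, 15.6 and 98.2 RPM in untreated C17.2b cells, and 1.79, 8.28 and 101 RPM in C17.2a cells with T3 and 2.16, 9.06 and 97.5 RPM in untreated C17.2a cells. All 4 values at 24 h lay far above the 8 earlier ones. The untreated difference between 24 and 6 h was 4.06 on the log2 scale (SE 0.34, adjusted p = 2.51e-05, limma). Aurkb encodes the kinase of the chromosomal passenger complex. Aurkb measured 18.5, 30.6 and 14.3 RPM with T3 and 17.6, 27.7 and 22.4 RPM without at 6, 12 and 24 h in C17.2b cells, and 5.07, 23.3 and 41.99 RPM with T3 and 4.18, 27.3 and 17.4 RPM without in C17.2a cells. It was higher at 24 h than at 6 h by 1.08 (SE 0.36, adjusted p = 0.0263, limma), but the groups overlapped, since untreated C17.2a cells at 24 h had 17.4 RPM and untreated C17.2b cells at 6 h 17.6 RPM, and the call was lost with median-ratio scaling. Its passenger partners Birc5 (survivin) and Incenp differed by 1.75 and 1.34, and the centrosome kinase Nek2 by 1.99, and these 3 were called under both scalings. Aurka, the spindle pole kinase, did not pass, at 0.64 (SE 0.27, adjusted p = 0.0662, limma).

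Of CDK1, its cyclins and phosphatases, 5 of 7 were higher at 24 h. Ccnb1 encodes cyclin B1. In C17.2b cells Ccnb1 stood at 30.1, 45.9 and 60.7 RPM with T3 and 31.1, 50.6 and 84.1 RPM without at 6, 12 and 24 h, and in C17.2a cells at 5.37, 20.2 and 86.1 RPM with T3 and 5.57, 20.5 and 58.9 RPM without. Every course increased at both steps and the 24 h values lay above all earlier ones. The untreated difference between 24 and 6 h was 2.30 (SE 0.32, adjusted p = 0.000305, limma). Ccnf, the F-box protein cyclin F, differed by 1.60 (SE 0.22, adjusted p = 0.000263). The values of Ccnf at 6, 12 and 24 h were 17.3, 24.5 and 30.7 RPM with T3 and 16.5, 23.8 and 42.6 RPM without in C17.2b cells, and 5.47, 13.9 and 48.7 RPM with T3 and 7.11, 8.97 and 28.8 RPM without in C17.2a cells. Ccnb2 differed by 1.80, a value that starts from the floor in C17.2a cells. At 6, 12 and 24 h Ccnb2 had 1.7, 2.83 and 1.68 RPM in C17.2b cells with T3 and 1.52, 3.5 and 4.75 RPM in untreated C17.2b cells, and 0.4, 0.78 and 2.5 RPM in C17.2a cells with T3 and 0.23, 0.98 and 5.51 RPM in untreated C17.2a cells. Cdk1, the kinase itself, behaved otherwise. Cdk1 measured 292, 452 and 323 RPM with T3 and 386, 504 and 454 RPM without at 6, 12 and 24 h in C17.2b cells, and 157, 490.1 and 776 RPM with T3 and 128.5, 568 and 274 RPM without in C17.2a cells. It was highest at 12 h in every course except C17.2a cells with T3, and its difference between 24 and 6 h did not pass (0.66, SE 0.32, adjusted p = 0.100, limma). Ccna2, the S and G2 cyclin, also did not pass (0.62, SE 0.32, adjusted p = 0.129).

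In the checkpoint and ubiquitin group, 5 of 7 genes were higher at 24 h. Cdc20 encodes the activator of the anaphase-promoting complex. In C17.2b cells Cdc20 stood at 2.23, 4.25 and 6.31 RPM with T3 and 1.83, 4.39 and 7.73 RPM without at 6, 12 and 24 h, and in C17.2a cells at 1.19, 2.76 and 8.11 RPM with T3 and 0.62, 2.04 and 11.02 RPM without. Its untreated difference between 24 and 6 h was 2.26 (SE 0.33, adjusted p = 0.000354, limma), and no earlier value reached any at 24 h. Ube2c, the conjugating enzyme of that complex, differed by 1.59 (SE 0.25, adjusted p = 0.000489). The values of Ube2c at 6, 12 and 24 h were 40.9, 70.8 and 81.7 RPM with T3 and 50.6, 70.6 and 99.8 RPM without in C17.2b cells, and 16.9, 51.1 and 36.9 RPM with T3 and 19.5, 45.4 and 94.01 RPM without in C17.2a cells. Here C17.2a cells with T3 stood apart, since they alone had less at 24 h than at 12 h. Bub3, a checkpoint adaptor, was near one level at 6 and 12 h and higher at 24 h in 3 of 4 courses. At 6, 12 and 24 h Bub3 had 19.1, 18.9 and 41.1 RPM in C17.2b cells with T3 and 18.5, 20.8 and 46.7 RPM in untreated C17.2b cells, and 16.6, 18.4 and 17.18 RPM in C17.2a cells with T3 and 16.4, 15.99 and 51.1 RPM in untreated C17.2a cells. It differed by 1.44 between 24 and 6 h in untreated cells (SE 0.18, adjusted p = 0.000185), while C17.2a cells with T3 had 17.18 RPM at 24 h, within the range of the earlier values. Pttg1 encodes securin, which keeps sister chromatids from being separated before anaphase, and was higher at 24 h than at any earlier time in all 4 courses. Pttg1 measured 6.17, 7.08 and 15.1 RPM with T3 and 8.01, 9.78 and 19.4 RPM without at 6, 12 and 24 h in C17.2b cells, and 5.07, 5.1 and 15.03 RPM with T3 and 7.11, 8.08 and 21.8 RPM without in C17.2a cells. Its difference was 1.34 (SE 0.21, adjusted p = 0.000543). The checkpoint kinase gene Bub1 did not pass. In C17.2b cells Bub1 stood at 12.8, 21.8 and 13.2 RPM with T3 and 15.1, 21.6 and 17.8 RPM without at 6, 12 and 24 h, and in C17.2a cells at 4.97, 16.1 and 21.7 RPM with T3 and 5.18, 18.3 and 12.96 RPM without. Its difference was 0.70 (SE 0.27, adjusted p = 0.0516). Mad2l1, the checkpoint effector MAD2, had 0.52 (SE 0.23, adjusted p = 0.0785). The values of Mad2l1 at 6, 12 and 24 h were 51.9, 69.96 and 55.4 RPM with T3 and 63.4, 81.8 and 69.7 RPM without in C17.2b cells, and 23.4, 62.4 and 83.97 RPM with T3 and 28.1, 79.9 and 53.6 RPM without in C17.2a cells. Both were highest at 12 h in both untreated lines.

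All 4 centromere and chromosome genes were higher at 24 h. Cenpa encodes the centromeric histone. At 6, 12 and 24 h Cenpa had 37.9, 73.95 and 108 RPM in C17.2b cells with T3 and 44.9, 78.7 and 154 RPM in untreated C17.2b cells, and 13.02, 21.4 and 269 RPM in C17.2a cells with T3 and 13.7, 21.5 and 126 RPM in untreated C17.2a cells. The 24 h values lay above all others, and the untreated difference between 24 and 6 h was 2.43 (SE 0.30, adjusted p = 0.00016, limma). Cenpe is the kinesin that carries chromosomes to the spindle equator. Cenpe measured 5.85, 11.3 and 11.3 RPM with T3 and 6.7, 10.8 and 19.8 RPM without at 6, 12 and 24 h in C17.2b cells, and 0.8, 5.87 and 9.42 RPM with T3 and 1.39, 5.51 and 14.5 RPM without in C17.2a cells. It differed by 2.06 (SE 0.29, adjusted p = 0.000321). Top2a encodes the topoisomerase that untangles sister DNA. In C17.2b cells Top2a stood at 65.7, 80.1 and 56.4 RPM with T3 and 58.9, 85.6 and 80.3 RPM without at 6, 12 and 24 h, and in C17.2a cells at 24.6, 86.4 and 40.3 RPM with T3 and 21.96, 75.2 and 76.7 RPM without. In both lines it was lower at 24 h than at 12 h with T3 and near its 12 h level without. Its difference between 24 and 6 h was 1.10 (SE 0.27, adjusted p = 0.00654) and was not called after median-ratio scaling.

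Of the spindle genes, 6 of 7 were higher at 24 h, and of the midzone and cytokinesis genes 4 of 6. Kif4 (a chromokinesin) and Kif23 (a midzone kinesin) followed Plk1 as the largest differences, at 3.28 (SE 0.32, adjusted p = 4.35e-05) and 3.14 (SE 0.32, adjusted p = 5.57e-05, limma). The values of Kif4 at 6, 12 and 24 h were 3.72, 4.16 and 21.6 RPM with T3 and 3.46, 4.04 and 26.9 RPM without in C17.2b cells, and 0.6, 3.89 and 26.1 RPM with T3 and 1.01, 4.26 and 29.4 RPM without in C17.2a cells. Kif4 was almost level between 6 and 12 h in C17.2b cells. Both genes start from few tags in C17.2a cells at 6 h. There Kif4 had 6 implied tags with T3, and Kif23 had 5 with T3 and 9 without. At 6, 12 and 24 h Kif23 had 2.98, 5.31 and 13.3 RPM in C17.2b cells with T3 and 2.99, 5.47 and 20.5 RPM in untreated C17.2b cells, and 0.5, 3.61 and 9.54 RPM in C17.2a cells with T3 and 0.7, 3.11 and 23.7 RPM in untreated C17.2a cells. Kif2c, a kinesin that takes microtubules apart, differed by 1.62 (SE 0.41, adjusted p = 0.00757). Kif2c measured 16.4, 31.6 and 23.8 RPM with T3 and 22.2, 37.4 and 31.1 RPM without at 6, 12 and 24 h in C17.2b cells, and 3.38, 15.8 and 43.7 RPM with T3 and 2.78, 16.97 and 24.7 RPM without in C17.2a cells. Nusap1 (a microtubule bundling protein of the spindle) differed by 2.11 (SE 0.34, adjusted p = 0.000675). In C17.2b cells Nusap1 stood at 12.3, 26.2 and 8.97 RPM with T3 and 14.4, 31.03 and 34.5 RPM without at 6, 12 and 24 h, and in C17.2a cells at 2.39, 15.99 and 33.04 RPM with T3 and 3.02, 18.9 and 31.3 RPM without. In C17.2b cells with T3 it was lower at 24 h than at 6 h, unlike in the other 3 courses. Prc1, the midzone crosslinker, differed by 1.35 (SE 0.15, adjusted p = 8.94e-05). The values of Prc1 at 6, 12 and 24 h were 60.4, 64.02 and 105 RPM with T3 and 48.2, 54.5 and 133 RPM without in C17.2b cells, and 31.8, 53.4 and 62.1 RPM with T3 and 48.96, 44.7 and 119 RPM without in C17.2a cells.

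The 3 that did not pass were Kif20a, at 0.81 (adjusted p = 0.0868, limma) and with its values given below, Hmmr and Racgap1, and all 3 were highest at 12 h in every course. Hmmr encodes a spindle protein that is also a hyaluronan receptor. At 6, 12 and 24 h Hmmr had 41.8, 91.9 and 20.8 RPM in C17.2b cells with T3 and 55.6, 91.8 and 26.6 RPM in untreated C17.2b cells, and 10.9, 61.4 and 57.4 RPM in C17.2a cells with T3 and 11.8, 62.8 and 24.3 RPM in untreated C17.2a cells. The 24 h values of both C17.2b courses were below their 6 h values. Racgap1 encodes the GTPase activator of centralspindlin, the partner of Kif23. Racgap1 measured 128, 213 and 36.3 RPM with T3 and 170.3, 272 and 133 RPM without at 6, 12 and 24 h in C17.2b cells, and 51.5, 165 and 140.3 RPM with T3 and 62.9, 205 and 100.4 RPM without in C17.2a cells. It was lower at 24 h than at 6 h in both C17.2b courses and higher in both C17.2a courses. Between 24 and 6 h in untreated cells, Hmmr differed by -0.02 (SE 0.37, adjusted p = 0.960) and Racgap1 by 0.15 (SE 0.23, adjusted p = 0.594, limma), both below the shift of all genes.

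**Figure D2:**
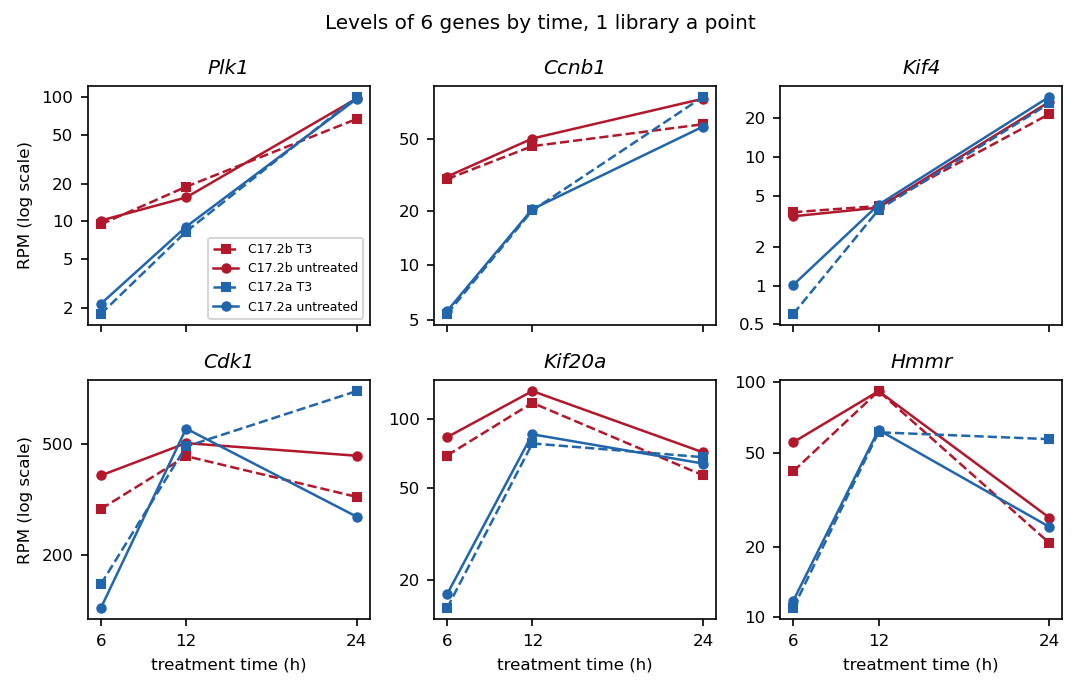
RPM on a log axis against treatment time for 6 genes, with 1 library per point. Red is C17.2b, blue is C17.2a, dashed squares are T3 and solid circles untreated. Plk1, Ccnb1 and Kif4 are highest at 24 h in all 4 courses, Kif20a and Hmmr are highest at 12 h, and Cdk1 is highest at 12 h except in C17.2a cells with T3. The blue points at 6 h lie below the red ones for each of the 6 genes.

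Splitting the course at 12 h separated these patterns. Between 6 and 12 h in untreated cells all 38 genes had a positive difference, with a median of 0.95 beside -0.07 for all genes. None passed the adjusted threshold, nor did any of the 10192 genes tested (0%, limma). Without adjustment 31 of the 38 genes had a p under 0.05, beside 6.16% of all genes. The count past the adjusted threshold, all higher, was 27 without the C17.2a untreated 24 h library, beside 0.99% of all genes, and 29 without the C17.2b untreated 24 h library, beside 1.23%. It was 22 without the C17.2b untreated 6 h library, beside 0.563%, 1 without the C17.2b untreated 12 h library, beside 0.0592%, and 0 of all genes without either other library. The largest differences at this step were those of Nusap1 (1.68), Aurkb (1.54), Hmmr (1.52), Kif2c (1.49) and the midzone kinesin gene Kif20a (1.46). Prc1 (0.02), Bub3 (0.06), Cenpf (0.11) and Pttg1 (0.21) were near 0.

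Between 12 and 24 h the all-gene median shifted by 0.48, and 47.4% of all genes were higher at 24 h and 12.3% lower. Of the 38 genes, 16 were higher and 2 were lower, and with median-ratio scaling 8 were higher and 9 lower, so the direction of the group as a whole depends on the scaling here. Over all genes, 79.4% of the calls were higher in RPM and 47.6% after that scaling. Plk1 (2.93), Kif4 (2.5), Kif23 (2.16), Cenpa (1.73), Bub3 (1.37), Prc1 (1.33), Ccnf (1.2) and Pttg1 (1.13) were higher at 24 h under both scalings. Hmmr was lower by -1.54 (SE 0.37, adjusted p = 0.00538) and Racgap1 by -1.02 (SE 0.23, adjusted p = 0.0039, limma), and both stayed lower after scaling. The other 7 that were lower only after scaling were Ccna2, Cdk1, Aurka, Bub1, Mad2l1, Kif20a and Ect2. In RPM their differences ran from -0.23 for Ect2, which acts in cytokinesis, to -0.72 for Ccna2, and none passed.

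**Figure D3:**
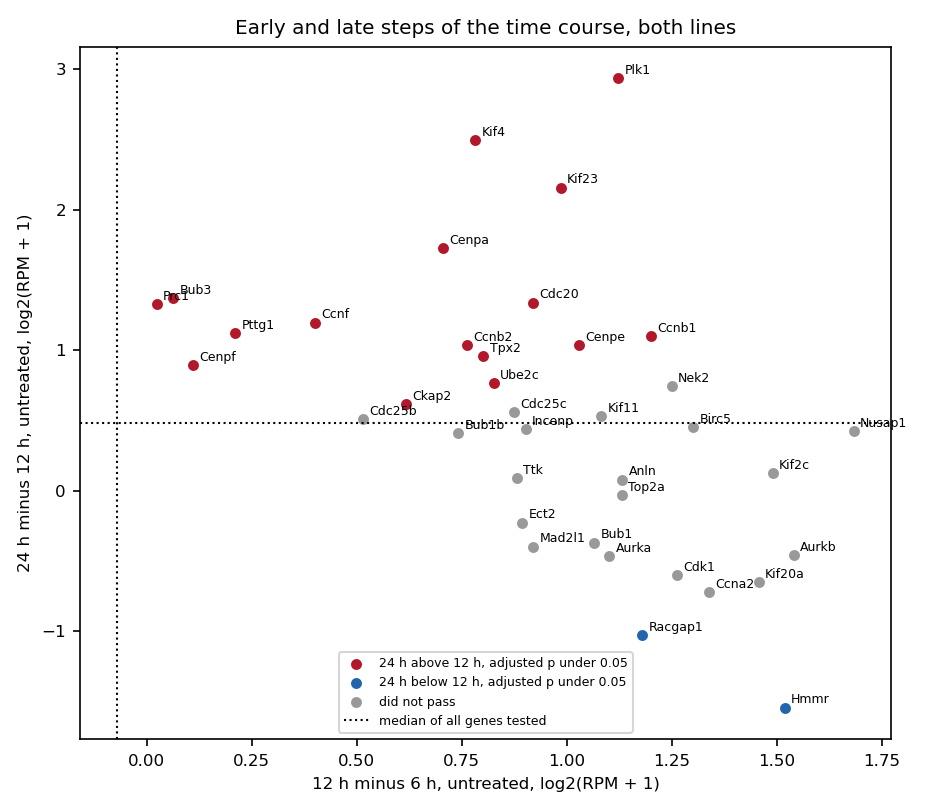
Each point is 1 of the 38 genes in untreated cells of both lines, with the log2 difference of 12 h minus 6 h on the horizontal axis and of 24 h minus 12 h on the vertical axis. Both differences use the same 12 h libraries. Dotted lines mark the medians of all genes, at -0.07 and 0.48. Prc1, Bub3, Cenpf and Pttg1 lie at the left and above the horizontal dotted line, and Hmmr and Racgap1 lie at the right and lowest.

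The T3-treated libraries, which the untreated fit does not use, gave the same comparison of times. With T3, 12 of the 38 genes were higher at 24 h than at 6 h and none was lower, beside 19.6% of all genes higher and 4.75% lower (limma, adjusted over 10142 genes). Their median was 1.23 beside 0.35 for all genes. This pooled value joins 2 unlike lines. Between the single libraries of C17.2b cells the median was 0.40, beside 0.45 for all genes. There 10 of the 38 were negative and 17 lay above the all-gene median. Between those of C17.2a cells, which include the library that stood apart, it was 2.29, beside 0.27, and all 38 were positive. Plk1 (3.95), Kif4 (3.17), Cenpa (2.88), Ccnb1 (2.38), Kif23 (2.33), Tpx2 (1.96, a spindle assembly factor), Ccnf (1.86), Cenpe (1.69), Cdc20 (1.62), Pttg1 (1.29), Ube2c (1.03) and Prc1 (0.87) passed, and all 12 were also called in untreated cells. With median-ratio scaling 3 remained, Plk1, Kif4 and Kif23, and over all genes 80.5% of the calls were higher in RPM and 43.2% after scaling. The count rested on single libraries. Without the C17.2a T3 24 h library it was 23 higher and 2 lower (Hmmr and Racgap1), beside 44.5% of all genes higher and 12.3% lower. Without the C17.2b T3 24 h library it was 35 higher, beside 38.2%. Without the C17.2a T3 12 h library it was 3, beside 4.7%, without the C17.2b T3 12 h library 3, beside 4.4%, and without either 6 h library no gene of the table was called. At 24 h 25 genes were above both 6 h values in both T3-treated lines, beside 43.3% of all genes. For 11 genes all 4 values at 24 h, with and without T3, lay above all 8 earlier ones, beside 26.5% of all genes, which is near the share among the 38.

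The second question is whether the lines differ without T3. In untreated cells all 38 genes had a higher mean in C17.2b than in C17.2a, with a median difference of 0.73 beside -0.04 for all genes. Of the 38, 10 passed as higher and none as lower (limma with time as a block, adjusted over 10192 genes), beside 2.93% of all genes higher and 5.92% lower. By role, the 10 were Ccnb1, Ccna2 and Ccnf of the cyclin group, Cenpa and Cenpe, Kif2c and Ckap2 of the spindle group, Ect2 and Racgap1 of the cytokinesis group, and Aurka. None of the 7 checkpoint and ubiquitin genes passed. Median-ratio scaling kept 8 of the 10, all but Kif2c and Racgap1. Over all genes, 33.1% of the calls were higher in RPM and 43.4% after scaling. With no filter on low values 2 passed, Ccnf and Ckap2. In a fit of all 12 libraries 5 passed, of which Ccnb1, Cenpe and Ckap2 were among the 10 and Ube2c and Nek2 were not.

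Ccnb1 had 31.1, 50.6 and 84.1 RPM in untreated C17.2b cells at 6, 12 and 24 h, against 5.57, 20.5 and 58.9 RPM in untreated C17.2a cells, a difference of 1.35 (SE 0.27, adjusted p = 0.0122, limma). The gap narrowed at each time but C17.2b was higher at all 3. Kif2c had 22.2, 37.4 and 31.1 RPM in untreated C17.2b cells, against 2.78, 16.97 and 24.7 RPM in untreated C17.2a cells, a difference of 1.34 (SE 0.34, adjusted p = 0.035). Cenpa had 44.9, 78.7 and 154 RPM in untreated C17.2b cells, against 13.7, 21.5 and 126 RPM in untreated C17.2a cells, a difference of 1.26 (SE 0.25, adjusted p = 0.0123). Ckap2, a spindle and centrosome protein, had 9.59, 15.96 and 24.96 RPM in untreated C17.2b cells and 4.1, 6.48 and 10.5 RPM in untreated C17.2a cells. Its difference of 1.14 (SE 0.17, adjusted p = 0.0028) was alike at the 3 times, at 1.05, 1.18 and 1.17. The smallest differences were those of Pttg1 (0.08), Bub3 (0.13) and Prc1 (0.14), which did not pass. Aurka was the only one of the 38 with all 3 untreated C17.2b values above all 3 untreated C17.2a values, beside 3.84% of all genes. It had 70.3, 101 and 70.3 RPM in untreated C17.2b cells and 20.3, 67.9 and 50.5 RPM in untreated C17.2a cells, a difference of 0.92 (adjusted p = 0.0275, limma).

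The gap between the lines was widest at 6 h. There the median of the 38 genes in C17.2b minus C17.2a was 1.49 with T3 and 1.40 without. At 12 h it was 0.46 with T3 and 0.41 without, and at 24 h -0.46 with T3 and 0.25 without. At 6 h 30 genes with T3 and 31 without were at least 2-fold higher in C17.2b, beside 2.63% of all genes with T3 and 1.94% without. None was 2-fold lower, beside 2.5% and 3.44% of all genes. Both C17.2b libraries of 6 h were above both C17.2a libraries of 6 h for 36 of the 38 genes, beside 18.2% of all genes. The exceptions were Pttg1 and Prc1. At 24 h 2 genes with T3 (Bub3 and Ube2c) and 1 without (Ckap2) were at least 2-fold higher in C17.2b, beside 16.5% and 1.59% of all genes. With T3 8 genes were at least 2-fold lower in C17.2b at 24 h, beside 4.56% of all genes, namely Cdk1, Aurka, Aurkb, Cenpa, Nusap1, Hmmr, Anln and Racgap1. That comparison uses the C17.2a T3 24 h library that stands apart, and the part of the library in it was not tested. These are single libraries and carry no p-value.

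**Figure D4:**
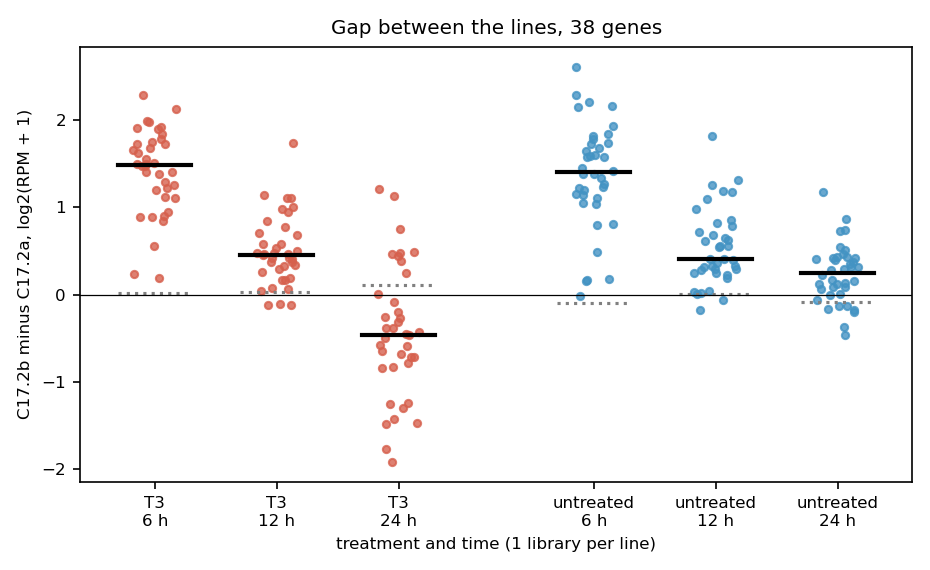
Each point is 1 of the 38 genes, at its C17.2b minus C17.2a difference in log2(RPM + 1), with T3 at the left and untreated at the right. Black bars are the medians of the 38 genes and grey dotted bars the medians of all 10577 genes. The black bar lies at 1.49 and 1.40 at 6 h and at -0.46 and 0.25 at 24 h.

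The count of genes that separate the untreated lines depended on the times used. Without the 24 h libraries 30 of 37 tested were higher in C17.2b, beside 4.3% of all genes. Without those of 12 h 13 were higher, beside 2.24%, and without those of 6 h 4 (Ccnb1, Ccnf, Cenpa and Ckap2), beside 1.42%. In T3-treated cells none of the 38 genes passed between the lines, where 1 of 10142 genes did (0.00986%, limma). Without adjustment 5 of the 38 had a p under 0.05, beside 14.7% of all genes, and the median difference was 0.50. Without the 24 h libraries 32 of 37 tested passed as higher in C17.2b cells, beside 7.94% of all genes. The change of the gap with time was tested in 1 fit of all 12 libraries as the difference between the lines in 24 h minus 6 h. Kif20a, a kinesin that moves the passenger complex to the midzone, was the only one of 10577 genes past the threshold (0.00945%), at -2.22 (SE 0.22, adjusted p = 0.0379, limma). In C17.2b cells Kif20a stood at 69.4, 118 and 56.9 RPM with T3 and 83.3, 132 and 71.6 RPM without at 6, 12 and 24 h, and in C17.2a cells at 15.01, 78.3 and 68.2 RPM with T3 and 17.24, 85.8 and 64 RPM without. At 6 h the C17.2b values were more than 4-fold those of C17.2a with and without T3, and at 24 h the 4 values lay between 56.9 and 71.6 RPM. For 36 of the 38 genes this difference was negative, with a median of -1.45 beside 0.08 for all genes, and 32 had a p under 0.05 without adjustment, beside 5.39% of all genes. The next smallest adjusted p was 0.178, for Plk1 (-2.15), Bub1b (-2.19) and Ccnb1 (-2.28). The count past the threshold was 12, all lower and Kif20a among them, without the C17.2a T3 24 h library, beside 0.228% of all genes lower. It was 28 lower and 1 higher without the C17.2a untreated 24 h library, beside 6.56% of all genes lower and 17% higher. It was 1, Nusap1, without the C17.2b untreated 24 h library, and 0 without any one of the other 9 libraries.

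The third question is whether T3 changes these genes, in either line and at any time. None of the 38 passed as changed by T3 in the response shared by the 6 pairs, each made of the T3 and the untreated library of 1 line and 1 time, where 6.45% of all 10577 genes were called (limma, pair as a block). Nor did any pass in C17.2b alone (3.11% of all genes), in C17.2a alone (1.37%), at 6 h (0.161%), 12 h (0.492%) or 24 h (1.06%). The test of the difference in the T3 response between the lines called no gene of the table (0%), and 583 genes, 1 of the 38 among them, had a p under 0.05 without adjustment. The test of the difference in the response between 24 and 6 h called none either (0%), and 593 genes, 3 of the 38 among them, had such a p. In C17.2b 2 of the 38 had such a p, beside 13.0% of all genes, in C17.2a 1, beside 16.5%, at 6 h none, beside 7.61%, at 12 h none, beside 7.92%, and at 24 h 8, beside 15.9%. In the shared response 1 of the 38 genes had a p under 0.05 without adjustment, beside 18.1% of all genes. The median of the 38 was -0.12 beside -0.01 for all genes, and 29 were negative.

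The 3 lowest in the shared response were Racgap1 (-0.45, SE 0.24, adjusted p = 0.380), Nusap1 (-0.45, SE 0.23, adjusted p = 0.367) and Pttg1 (-0.43, SE 0.11, adjusted p = 0.0512, limma). The 3 highest were Bub1b, a checkpoint kinase relative (0.25, SE 0.12, adjusted p = 0.348), Aurkb (0.14, SE 0.21, adjusted p = 0.799) and Ccnf (0.11, SE 0.17, adjusted p = 0.812). The values of Bub1b at 6, 12 and 24 h were 55.6, 71.4 and 70.2 RPM with T3 and 55.4, 55.9 and 65.1 RPM without in C17.2b cells, and 15.8, 49.1 and 122 RPM with T3 and 15.3, 44.2 and 67.8 RPM without in C17.2a cells. For Pttg1 the T3 value was below the untreated value in all 6 pairs, and it passed as lower in 4 alternatives: a filter of 5 RPM, median-ratio scaling, no pair block, and without the C17.2a 24 h pair (-0.42, adjusted p = 0.0195). Without that pair Mad2l1 passed too, at -0.29 (SE 0.07, adjusted p = 0.0238).

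By pair, the median T3 difference of the 38 genes at 6, 12 and 24 h was -0.11, -0.08 and -0.46 in C17.2b cells and -0.18, -0.07 and 0.08 in C17.2a cells. None of the 38 reached 2-fold at 6 or 12 h in either line. In C17.2b cells 2.5% of all genes were at least 2-fold higher and 1.3% lower at 6 h, and 2.75% higher and 1.33% lower at 12 h. In C17.2a cells 1.74% were higher and 1.1% lower at 6 h, and 2.06% higher and 0.86% lower at 12 h. In C17.2b cells at 24 h 36 of the 38 genes were lower with T3, where the median of all genes was 0.058. Of the 38, 3 were lower by at least 2-fold, beside 1.72% of all genes. None was 2-fold higher, beside 4.59% of all genes. The 3 lower genes were Racgap1, with 36.3 RPM with T3 and 133 RPM without, Nusap1, with 8.97 RPM with T3 and 34.5 RPM without, and Ccnb2, with 1.68 RPM with T3 and 4.75 RPM without. In C17.2a cells at 24 h 7 genes were at least 2-fold higher with T3, beside 5.34% of all genes, and 3 at least 2-fold lower, beside 18.3%. The 7 were Cdk1 (776 RPM with T3 and 274 RPM without), Anln, the cytokinesis scaffold anillin (182 RPM with T3 and 69.2 RPM without), Aurkb, Hmmr, Aurka, Cenpa and Ect2. The 3 were Bub3 (17.18 RPM with T3 and 51.1 RPM without), Ube2c and Kif23. The test of the difference of the T3 response between the lines averages over 6, 12 and 24 h. It called none of these genes, with adjusted p values of 0.722 or more (limma), and cannot decide whether the lines differ at 24 h. No 24 h pair has a second library.

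**Figure D5:**
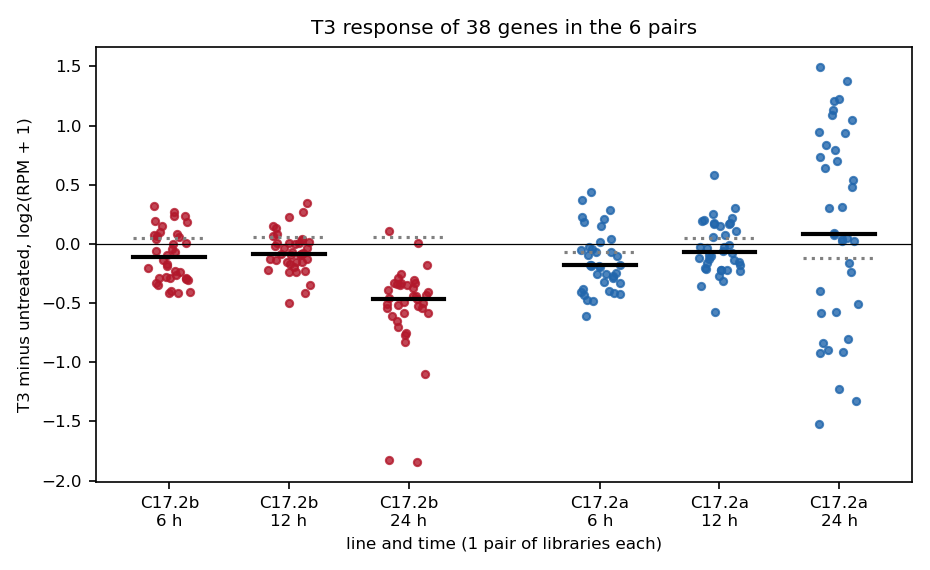
Each point is 1 of the 38 genes at its T3 minus untreated difference in log2(RPM + 1), with C17.2b at the left and C17.2a at the right. Black bars are the medians of the 38 genes and grey dotted bars those of all 10577 genes. Points stay within 2-fold of 0 at 6 and 12 h and spread at 24 h, mostly downward in C17.2b and in both directions in C17.2a.

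At 24 h both pairs together gave 8 of 38 genes with a p under 0.05 without adjustment, all lower with T3, beside 15.9% of all genes. They were Ccnb2 (-1.0, SE 0.23, adjusted p = 0.128), Top2a (-0.71), Kif23 (-0.91), Kif11 (-0.67, a spindle pole motor), Ube2c (-0.81), Cenpe (-0.66), Bub3 (-0.85) and Prc1 (-0.63). Leaving out the C17.2a 24 h pair, which leaves the C17.2b pair as the only one of that time and assumes that it varies like the others, gave 3 lower, where 1.68% of all genes were lower: Birc5 (-0.83, adjusted p = 0.0163), Nusap1 (-1.83, adjusted p = 0.000866) and Racgap1 (-1.84, adjusted p = 8.62e-05, limma). Leaving out the C17.2b 24 h pair in the same way gave 15 higher and 7 lower, where 16% of all genes were higher and 25.6% lower. The 24 h minus 6 h difference of the response called 2 lower, Nusap1 and Racgap1, without the C17.2a 24 h pair, beside 0.26% of all genes lower. Without the C17.2b 24 h pair it called 13 higher and 4 lower, beside 11.5% of all genes higher and 20.8% lower. Racgap1 also passed in the response of C17.2b cells (-0.87, SE 0.23, adjusted p = 0.0338) without the C17.2a 24 h pair.

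Across the 12 libraries the genes varied together to different degrees. The Pearson correlation of a gene with the median of the other 37 ran from 0.40 for Racgap1, 0.49 for Hmmr and 0.51 for Bub3 to 0.98 for Ccnb1, Cenpe and Birc5. The points share library totals and the time course, and the value is a description. Of 10539 genes outside the 38, the 10 most like their median over the 12 libraries were Mki67 (0.98, the proliferation marker Ki-67), Cenpl (0.98) and Cenpn (0.97) of the inner kinetochore, Sgol2 (0.97, a protector of cohesion), Melk (0.96, a kinase), Kif15 (0.96, a spindle kinesin), Ndc80 (0.96, the outer kinetochore link to microtubules), Depdc1a (0.96), Ncapd2 (0.95, condensin) and Neil3 (0.95, a DNA glycosylase).

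The rest of the pathway was read from lists of other genes. Between 24 and 6 h in untreated cells 20 of 27 other spindle, centrosome and cytokinesis genes were higher and 1 was lower, among them Aspm (2.78), Kif22 (2.74), Cdca3 (2.72) and Troap (2.46). Of 27 other kinetochore genes 17 were higher and none lower, among them Spc24 (2.37) and Hjurp (1.73), the chaperone of Cenpa. Of 21 condensin, cohesin and separation genes 12 were higher and none lower, with Ncapd2 at 2.25. Of 29 regulators 18 were higher and 1 lower, among them Mki67 (2.74), the kinase Pbk (2.87) and the CDK adaptor Cks2 (1.36). Of 14 subunits and partners of the anaphase-promoting complex 6 were higher and 1 lower. Their median of 0.29 lay below the shift of all genes, although Ube2s (2.43) and Anapc2 (1.91) were high. Of 39 S phase genes 20 were higher and 4 lower, among them the replication helicase gene Mcm5 (2.11) and the thymidine kinase gene Tk1 (2.65) as higher. Of 21 p53 target and quiescence genes 10 were higher and 7 lower, among them Gadd45b (1.95) as higher and Bbc3 (-1.34) and Ccng1 (-1.19) as lower. Against the same background of 43% higher, the medians relative to the all-gene shift were 0.78 for the spindle list, 0.61 for the regulators, 0.52 for the kinetochore list, 0.32 for S phase, 0.26 for the condensin and cohesin list, 0.03 for the p53 and quiescence list and -0.11 for the anaphase-promoting complex list.

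In the lines without T3, 2.93% of all genes were higher in C17.2b and 5.92% lower. Of 27 other spindle genes 7 were higher and none lower, among them Kifc1 (0.98), Arhgap11a (0.97), Aspm (0.82) and Psrc1 (0.70). Of the regulators 5 were higher, among them Depdc1b (1.2), Hmgb2 (0.91) and Lmnb1 (0.68), and 1 lower, E2f1 (-0.62), a transcription factor of the G1 to S step. Of 27 kinetochore genes 1 was higher (Pmf1, 0.58), and 1 of 21 in the condensin and cohesin list (Ncapd2, 0.66), both near the share of all genes. None of the 39 S phase genes and none of the 14 anaphase-promoting complex genes passed between the lines. Of the p53 target and quiescence genes 3 were lower in C17.2b, Plk2 (-0.78), Gas6 (-0.88) and Gadd45b (-0.85), and none was higher. For T3, no gene of these 6 lists passed in the shared response, where 6.45% of all genes were called in either direction. Of 22 genes in the p53 target and quiescence list 3 were higher with T3. They were Cdkn2c (1.45) and Cdkn1a (0.76), both inhibitors of cyclin-dependent kinases, and Gadd45a (0.74), a stress gene. The 1 lower was Ccnd1 (-1.39), which encodes cyclin D1, a G1 cyclin and not itself a quiescence gene. These 4 passed where none of the 38 G2 and mitosis genes did, and whether the responses differ between the lists was not tested.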

How the data were processed

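Digital gene expression profiles of polyA RNA were analysed from 12 libraries, 1 for each line, treatment and time. The deposited table gives RPM per gene symbol, a unit read from its values, since all columns sum to nearly one common total. The genome build was mm9, per the submitters' processing notes, and the sources used here give no aligner, tag-to-gene rule or filter. N/A was read as 0. Between 90.0% and 93.8% of values under 2 RPM lay within 0.0055 RPM of whole tags, so counts were not recovered. With R 4.3.3, limma 3.58.1 (lmFit, eBayes with trend) was fitted to log2(RPM + 1) of genes that reached 1 RPM in 3 or more libraries of the fit, with Benjamini-Hochberg adjustment over all genes tested and a threshold of 0.05. T3 fits had the pair of the same line and time as a block, fits of lines the time and fits of times the line, and single pairs were read at 2-fold. The fits of 12 h minus 6 h, 24 h minus 12 h, the lines with T3 and time by line were added after the data were seen, and so was leaving out single libraries. Alternatives changed the pseudocount, the filter, the scaling, the block and the libraries. Scripts were tested on simulated data. Values in all libraries are given for 9 genes named by role and for the 3 highest and 3 lowest in each main comparison. The members and lists were chosen with earlier results of these data known.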

Additional observations from a re-analysis of the deposited data

Results flagged for a closer look

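Kif20a was the only gene for which a test of the difference between the lines in 24 h minus 6 h passed the threshold. The difference, C17.2b minus C17.2a, was -2.22 on the log2 scale (SE 0.22, adjusted p = 0.0379, limma over 10577 genes), seen both with T3 and without. In C17.2b cells Kif20a had 56.9 RPM at 24 h and 69.4 RPM at 6 h with T3, and 71.6 RPM at 24 h and 83.3 RPM at 6 h without. In C17.2a cells it had 68.2 RPM at 24 h and 15.0 RPM at 6 h with T3, and 64.0 RPM at 24 h and 17.24 RPM at 6 h without. The call was lost with a pseudocount of 5, with median-ratio scaling and without any one of 10 of the 12 libraries. It was kept without either C17.2a library of 24 h.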

How the results depend on the processing

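Counts are of the 38 genes past an adjusted p of 0.05 (limma). The T3 response shared by the 6 pairs called 1 gene, Pttg1, with a filter of 5 RPM, with median-ratio scaling and without the pair block, against 0 as reported. The untreated lines gave 2 with no filter and 5 in a fit of all 12 libraries, against 10. Times with T3 gave 7 with no filter and 3 with median-ratio scaling, against 12, and time by line gave 0 with a pseudocount of 5 and with median-ratio scaling, against 1. The median of the 38 genes changed sign in 3 T3 comparisons where none of them was called as reported. In C17.2a it was -0.05 as reported and 0.01 with median-ratio scaling, and with 1 pair left out it ran from -0.46 to 0.08 at 24 h and from -0.34 to 0.36 for 24 h minus 6 h. For 24 h minus 12 h the report gives the split under both scalings. Leaving out 1 pair, time or library gave 0 to 2 for the shared T3 response, 0 to 1 in C17.2b, 0 to 22 at 24 h, 0 to 17 for the response at 24 h minus 6 h, 4 to 30 between untreated lines, 25 to 37 for untreated 24 h minus 6 h, 0 to 35 with T3, 0 to 29 for 12 h minus 6 h, 15 to 26 for 24 h minus 12 h, 0 to 29 for time by line and 0 to 32 between T3-treated lines. The response in C17.2a, that at 6 h, that at 12 h and its difference between the lines stayed at 0. Fits that leave out a library of 1 treatment keep 1 residual degree of freedom, and the cause of these moves was not tested. The pairs of the T3 fits are a T3 and an untreated library of 1 line and time, since the labels give no replicate numbers. Depth limits Ccnb2 in C17.2a cells at 6 h, at 3 and 4 tags. Other values there also rested on few tags. With T3 they were Kif23 (5), Kif4 (6) and Cenpe (8), and without T3 Cdc20 (8), Kif23 (9) and Nek2 (12).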
